A study of Homo sapiens with 21 samples.

Results

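The circular RNAs numbered hsa_circ_104535, hsa_circ_48935, hsa_circ_29236, hsa_circ_41874, hsa_circ_2068 and hsa_circ_2069 were described as strong markers of the lung cancer line PC-9. They are 6 of the 124082 circRNAs counted in the series. They were chosen by their read counts in PC-9 cells set against those in NL20 and NCI-H1975 cells, so these differences between lines are given below as descriptions without a test. How little they moved with gefitinib resistance was named in the same choice, and the values of that comparison are therefore no independent evidence of steadiness. Reads in the NCI-H1975 groups were part of the choice too, so tests within that line reuse values of the choice.

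Circular RNAs (circRNAs) form when the spliceosome joins the end of an exon back to the start of an upstream one, which closes the transcript into a ring. A ring has no free end for exonucleases and many circRNAs outlast the linear transcripts of their gene. They are recognised in sequencing by reads that cross the back-splice junction. Which circRNAs a cell holds depends on which genes it transcribes and on how their exons are spliced, and circRNA profiles are known to differ widely between cell types.

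The libraries came from 3 human lung lines in 7 groups of 3. The PC-9 line, which carries mutant EGFR, was sequenced as gefitinib-resistant cells treated with 1 µM gefitinib, an inhibitor of the EGFR kinase, and as cells without a resistance code. NCI-H1975, also EGFR-mutant, was sequenced as osimertinib-resistant cells treated with 1 µM osimertinib, a later EGFR inhibitor. It was also sequenced as cells transfected with FASN, as cells transfected with the plasmid pCMV6, and as cells with none of these treatments. The last are called uncoded or without a code below, meaning without a code for resistance or transfection. FASN is fatty acid synthase. Both transfected groups received 50 µg/ml G418, which selects for the plasmid. NL20, an immortalized bronchial epithelial line that does not form tumours, was the normal control. All groups were grown in the same medium. The labels do not say whether the resistant lines were clones or mixed populations, nor whether separate cultures were grown for each library, so p-values measure the spread between these libraries, which may be technical.

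Library totals ran from 95808 to 203079 reads, with 108805 to 120142 for the gefitinib-resistant PC-9 group, 106266 to 192666 for PC-9, 95808 to 170423 in the NCI-H1975 groups and 157660 to 203079 in NL20. Levels are given as CPM, counts per 1000000 scaled reads in the 9175 circRNAs that passed a filter on low counts. All 6 members passed it. The table numbers its circRNAs from 1 to 124082 in the order of the first library, by column, that held a read, and pairs no number with a gene, a position or a sequence. The members' host genes are therefore not given here, their sequences are not printed, and the cell lines could not be checked against marker genes.

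hsa_circ_104535 was found in the PC-9 line and in no other library. It stood at 3208, 4077 and 3387 CPM in gefitinib-resistant PC-9 and at 3096, 4135 and 3642 CPM in PC-9. It had 2118 reads in these 6 libraries and 0 reads in the 12 NCI-H1975 and 3 NL20 libraries. The groups of the PC-9 line overlapped fully, and no library of the other lines held a read of it. Set against a floor of 3 counts over all 15 other libraries, the level in the PC-9 line was at least 1866-fold higher. In bulk libraries such as these, fewer cells with a circRNA and less of it in each cell cannot be told apart.

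Many circRNAs were seen in the PC-9 line alone, but nearly all were rare. Of the 19692 circRNAs with reads in the PC-9 groups and in no other library, 9464 rested on 1 read, 94 passed the filter and 21 had 100 or more reads. hsa_circ_104535 ranked 1 among them by reads, and the next had 537. It was the 8th most abundant circRNA tested in gefitinib-resistant PC-9 by mean CPM and the 10th in PC-9.

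hsa_circ_48935 had almost the same distribution at a lower level. It stood at 1206, 2082 and 1359 CPM in gefitinib-resistant PC-9 and at 1104, 1509 and 1166 CPM in PC-9, so that these groups overlapped. Outside the PC-9 line it had 1 read, in FASN replicate 2. With 825 reads against 1, its ratio of the 6 PC-9 libraries to the 15 others was 2181, with a 95% exact conditional interval from 390.3 to 86232. That single read also set its number, since FASN replicate 2 was the first library by column to hold it. Among the 24500 circRNAs with reads in the PC-9 groups and at most 1 read elsewhere, it ranked 2 by reads, behind hsa_circ_104535.

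hsa_circ_29236 was the member that changed most with gefitinib resistance. It stood at 2962, 2795 and 2504 CPM in gefitinib-resistant PC-9, against 1383, 1655 and 1666 CPM in PC-9, and the groups did not overlap. NL20 had 0 reads of it. The NCI-H1975 line held traces. It had 3, 3 and 1 reads in osimertinib-resistant cells, 1, 0 and 0 in FASN cells, 0, 0 and 4 in pCMV6 cells, and 6, 1 and 0 in NCI-H1975 cells without a code. These 19 reads fell in 7 of the 12 NCI-H1975 libraries, and the groups of the line overlapped. PC-9 was at least 206.5-fold above NL20 and stood 70.7-fold above NCI-H1975 as a ratio of mean CPM, in which the NCI-H1975 mean of 22.2 ± 31.0 CPM (SD, n = 3) rested on 7 reads.

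hsa_circ_41874 was the member with a low but even level in NL20. It stood at 1440.1, 1271 and 2413 CPM in gefitinib-resistant PC-9 and at 1796, 1531 and 1107 CPM in PC-9. NL20 had 6, 8 and 6 reads, or 50.7 ± 5.32 CPM (SD, n = 3), and every NL20 library lay above every NCI-H1975 library. The NCI-H1975 line had 7 reads in all, 1 in each FASN library and 2, 2 and 0 in NCI-H1975 cells without a code. Osimertinib-resistant and pCMV6 cells had 0 reads, which allows up to 10.3 and 12.4 CPM by a floor of 3 counts over the group. PC-9 stood 29.1-fold above NL20 and 119.7-fold above NCI-H1975, where that group had 4 reads.

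hsa_circ_2068 was read in all 21 libraries and differed between lines in amount. It stood at 3091, 3540 and 3897 CPM in gefitinib-resistant PC-9 and at 4623, 4536 and 4201 CPM in PC-9, where it ranked 3 among all circRNAs tested. The resistant libraries all lay below the PC-9 libraries. It averaged 1038 ± 162.3 CPM in osimertinib-resistant NCI-H1975 libraries, 840.9 ± 129.0 CPM in those with FASN, 1080.1 ± 69.6 CPM with pCMV6 and 794.0 ± 90.7 CPM in NCI-H1975 without a code (SD, n = 3 each). By mean, the order within the NCI-H1975 line was pCMV6, osimertinib-resistant, FASN and NCI-H1975 without a code. Groups next to each other in that order overlapped, but not all of those further apart. NL20 was lowest, at 593.2 ± 56.9 CPM, with all 3 libraries below every NCI-H1975 library. PC-9 was 5.61-fold above NCI-H1975 and 7.51-fold above NL20.

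hsa_circ_2069, numbered next to it, was also read in every library. It stood at 1803.0, 2104 and 2469.6 CPM in gefitinib-resistant PC-9 and at 2528, 2436 and 2595 CPM in PC-9, and these groups overlapped. It averaged 382.5 ± 45.5 CPM in osimertinib-resistant NCI-H1975 libraries, 288.5 ± 91.8 CPM in those with FASN, 495.5 ± 187.1 CPM with pCMV6, 173.7 ± 20.5 CPM in NCI-H1975 without a code and 140.4 ± 62.9 CPM in NL20 (SD, n = 3 each). By mean, the order outside the PC-9 line was pCMV6, osimertinib-resistant, FASN, NCI-H1975 without a code and NL20. Groups next to each other in that order overlapped, NCI-H1975 and NL20 included, but not all of those further apart. PC-9 was 14.5-fold above NCI-H1975 and 17.9-fold above NL20, a wider gap than for hsa_circ_2068.

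**Figure D1:**
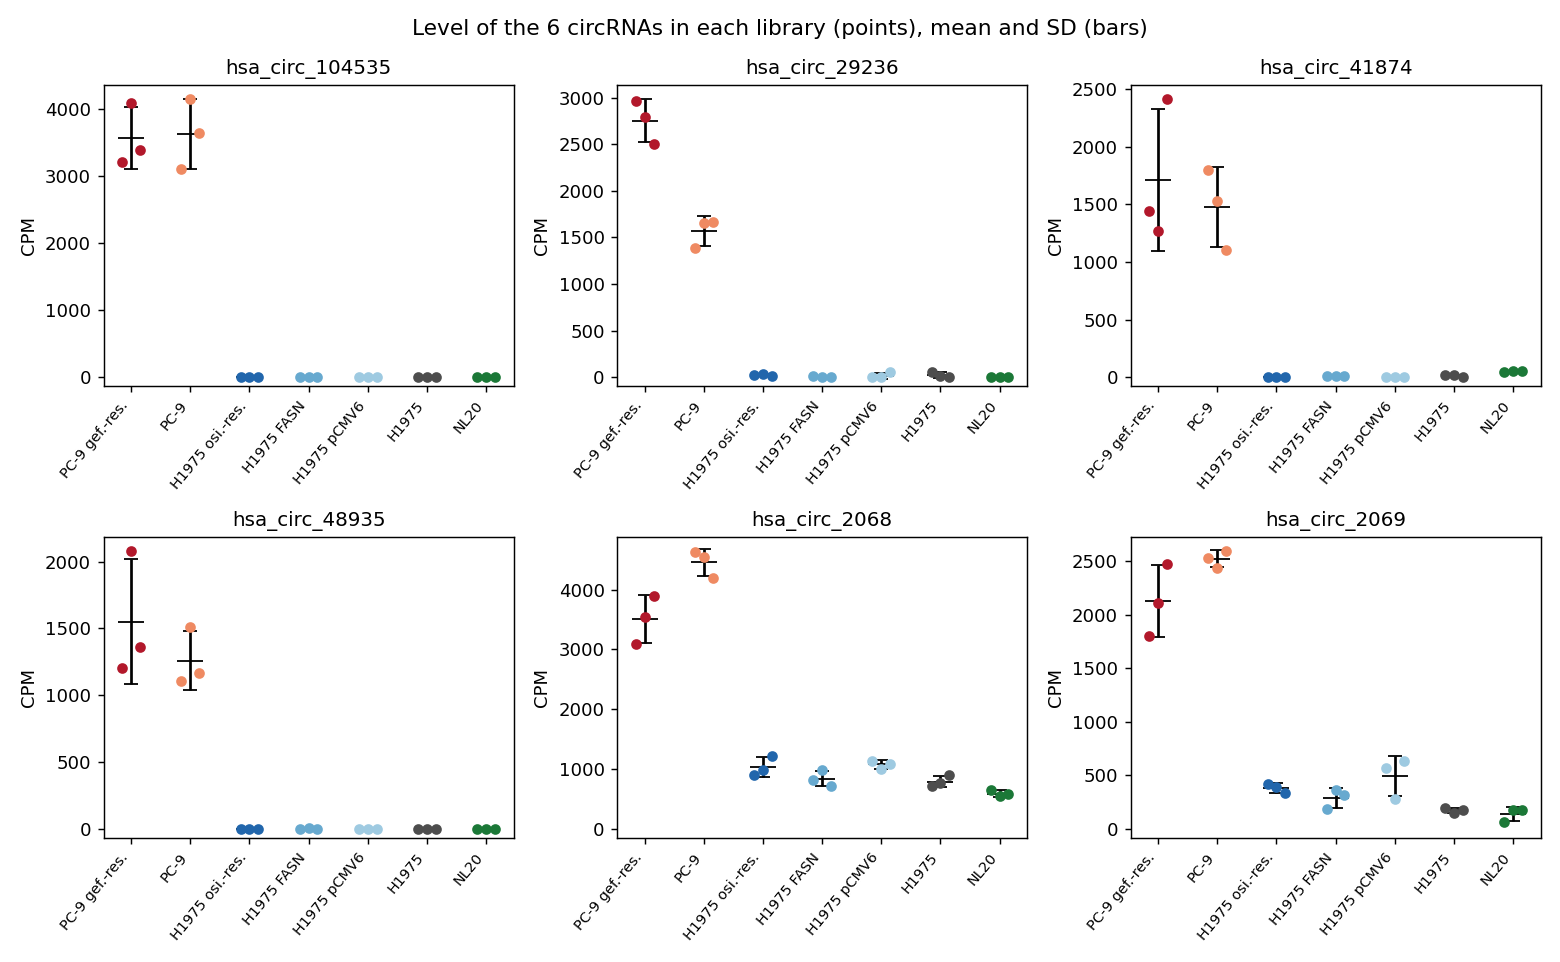
Level of each of the 6 circRNAs in CPM (vertical axes, linear, each with its own scale) in the 21 libraries, with the groups along the horizontal axes. Points are libraries and bars are the mean and SD. The upper row and hsa_circ_48935 are at or near 0 outside the PC-9 line, while hsa_circ_2068 and hsa_circ_2069 keep a level in every group.

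The summed reads of the 6 circRNAs are given as a share of each library. They took 1.08%, 1.21% and 1.20% of all reads in gefitinib-resistant PC-9 and 1.07%, 1.13% and 1.14% in PC-9. In the other lines they took between 0.0547% and 0.143%, almost all of it hsa_circ_2068 and hsa_circ_2069. The mean difference between gefitinib-resistant PC-9 and PC-9 was 0.05 percentage points and the groups overlapped (exact two-sided permutation test, p = 0.3, adjusted p = 0.375 over 5 tests, with 0.1 the smallest p that 3 against 3 allows). A test that cannot pass shows no steadiness, and within the resistant group the 95% Wilson intervals of replicate 1, 1.017% to 1.139%, and replicate 2, 1.145% to 1.269%, did not overlap. hsa_circ_29236 made up 18.3% ± 3.05 of the reads of the 6 in gefitinib-resistant PC-9 and 10.5% ± 1.04 in PC-9 (SD, n = 3 each). hsa_circ_2068 made up 23.1% ± 1.10 in gefitinib-resistant PC-9 and 29.9% ± 1.67 in PC-9 (SD, n = 3 each). The shares of the 6 sum to the whole, so a higher share of one lowers those of the others.

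Gefitinib-resistant PC-9 was set against PC-9 to see which members moved with resistance. hsa_circ_29236 rose 1.75-fold, by 0.81 ± 0.24 on the log2 scale (SE, 95% interval 0.35 to 1.27), with an adjusted p of 0.0435 in edgeR's quasi-likelihood test over all circRNAs tested. The call was lost when any of the 6 libraries was left out, with edgeR adjusted p between 0.144 and 0.391 and log2 changes between 0.71 and 0.89. It was also lost without the filter on low counts, and over all alternatives the adjusted p of edgeR and DESeq2 ran from 1e-05 to 1.0. It was the only member called, 1 of 6, where 1.35% of all circRNAs tested were called, 0.73% as higher and 0.621% as lower. At an unadjusted p under 0.05 it was 2 of 6, with hsa_circ_2068, where 11.1% of all circRNAs tested passed.

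The other 5 members did not pass the test, and their intervals show how large a change the data leave room for. The log2 change was -0.03 for hsa_circ_104535 (95% interval -0.42 to 0.36), which in folds runs from 0.749 to 1.28. It was 0.29 for hsa_circ_48935 (-0.24 to 0.83) and 0.21 for hsa_circ_41874 (-0.30 to 0.71). Without gefitinib-resistant replicate 2, its highest library, the change of hsa_circ_48935 was 0.04. For hsa_circ_41874 the sign turned to -0.11 without gefitinib-resistant replicate 3, its highest library. The log2 change was -0.34 for hsa_circ_2068 (edgeR unadjusted p = 0.0498, adjusted p = 0.451), with all 3 resistant libraries below all 3 PC-9 libraries, and -0.24 for hsa_circ_2069 (-0.66 to 0.17), which became -0.16 without gefitinib-resistant replicate 1. The median size of change over the 6 was 0.27 on the log2 scale, beside 0.67 over all 9175 tested. The members were among the best counted, ranking 31 to 400 by total reads, and the background was not matched to them in counts. Small movement was also named in their choice, so the smaller median shows no steadiness.

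**Figure D2:**
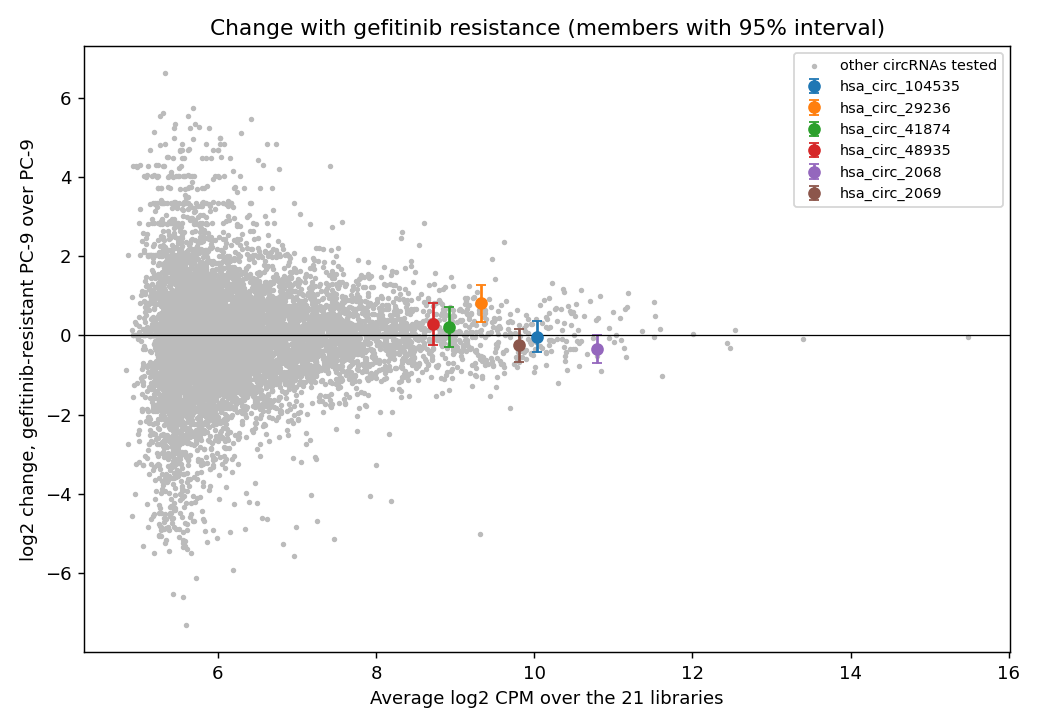
Log2 change in gefitinib-resistant PC-9 over PC-9 (vertical axis) against the average log2 CPM over the 21 libraries (horizontal axis) for all circRNAs tested (grey) and the 6 members (coloured, with 95% intervals). hsa_circ_29236 lies at 0.81 with its interval above 0, and the other members lie between -0.34 and 0.29.

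The members differed in how evenly the replicate libraries held them. For hsa_circ_2068 and hsa_circ_2069 the chi-square of reads per degree of freedom over the 3 PC-9 libraries was 0.998 and 0.277, so their spread there was no larger than counting error. In gefitinib-resistant PC-9 it was 4.03 for hsa_circ_2068 and 4.55 for hsa_circ_2069, so there they varied beyond it. For hsa_circ_29236 it was 1.7 in gefitinib-resistant PC-9 and 1.64 in PC-9, and for hsa_circ_104535 it was 5.27 in gefitinib-resistant PC-9 and 8.34 in PC-9. For hsa_circ_41874 and hsa_circ_48935 it was 19.8 and 12.6 in gefitinib-resistant PC-9 and 7.2 and 4.33 in PC-9. The coefficient of variation of hsa_circ_41874 reached 36.1% in the resistant libraries, against 8.43% for hsa_circ_29236.

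Within the NCI-H1975 line, hsa_circ_2069 rose in osimertinib-resistant and in pCMV6 cells. It stood at 423.6, 390.3 and 333.6 CPM in osimertinib-resistant cells, against 192.1, 151.5 and 177.4 CPM in NCI-H1975 cells without a code. The resistant libraries all lay above the others, with a log2 change of 1.13 ± 0.28 (SE, 95% interval 0.59 to 1.67, edgeR adjusted p = 0.00451). This call was lost without NCI-H1975 replicate 2 (log2 change 1.02, edgeR adjusted p = 0.0653) and when the other 5 groups did not enter the fit (edgeR adjusted p = 0.0609). Over all alternatives the adjusted p ran from 0.00268 to 0.706 by edgeR or DESeq2. In this comparison 2.52% of all circRNAs tested were called, 1.36% as higher and 1.16% as lower.

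The pCMV6 cells had more hsa_circ_2069, though less evenly. It stood at 565.6, 283.5 and 637.5 CPM in pCMV6 cells, against the same 192.1, 151.5 and 177.4 CPM in NCI-H1975 cells. All 3 libraries lay above the NCI-H1975 libraries, with a log2 change of 1.51 ± 0.27 (SE, 95% interval 0.97 to 2.05, edgeR adjusted p = 4.75e-05), where 0.36% of all circRNAs tested were called, 0.12% as higher and 0.24% as lower. Left without pCMV6 replicate 3, the comparison gave a log2 change of 1.16 (edgeR adjusted p = 0.0637), and over all alternatives the adjusted p ran from 4.57e-06 to 0.124 by edgeR or DESeq2. The osimertinib-resistant and pCMV6 comparisons share the NCI-H1975 libraries, so a low value there enters both. Low reads in NCI-H1975 were also part of the choice of the members, so the p-values of both comparisons are not independent of it.

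On average FASN cells lay between pCMV6 and uncoded NCI-H1975 cells for hsa_circ_2069, at 185.0, 360.1 and 320.6 CPM, against 565.6, 283.5 and 637.5 CPM in pCMV6 cells. The groups overlapped, and the log2 change of -0.76 (95% interval -1.28 to -0.25) did not pass the test (edgeR unadjusted p = 0.00388, adjusted p = 0.324), where 0.316% of all circRNAs tested were called, 0.196% as higher and 0.12% as lower. At an unadjusted p under 0.05, 7.95% passed. The change was -0.46 without FASN replicate 1 and also without pCMV6 replicate 3, and reached -0.98 without pCMV6 replicate 2. FASN replicate 1 was close to the NCI-H1975 libraries and replicates 2 and 3 lay above them.

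hsa_circ_2068 was not called in any comparison within the NCI-H1975 line, though the libraries compared did not overlap. Osimertinib-resistant libraries, from 907.7 CPM, and pCMV6 libraries, from 1005 CPM, lay above the uncoded NCI-H1975 libraries, which reached 895.3 CPM. FASN libraries reached 981.2 CPM and lay below those of pCMV6. The log2 change of hsa_circ_2068 was 0.39 in osimertinib-resistant cells (95% interval 0.01 to 0.76, edgeR adjusted p = 0.341) and 0.44 in pCMV6 cells (0.06 to 0.82, edgeR adjusted p = 0.534), both against NCI-H1975 cells. It was -0.36 in FASN against pCMV6 cells (-0.74 to 0.03, edgeR adjusted p = 0.677). These became 0.24 without osimertinib-resistant replicate 3, 0.29 without pCMV6 replicate 3 and -0.20 without FASN replicate 3. Its unadjusted p in edgeR's quasi-likelihood test was 0.0441 in osimertinib-resistant cells, where 13.9% of all circRNAs tested were under 0.05. In pCMV6 cells the edgeR unadjusted p was 0.0223, where 7.87% were under 0.05. The other 4 members had at most 7 reads in any NCI-H1975 group, too few to give a fitted change.

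**Figure D3:**
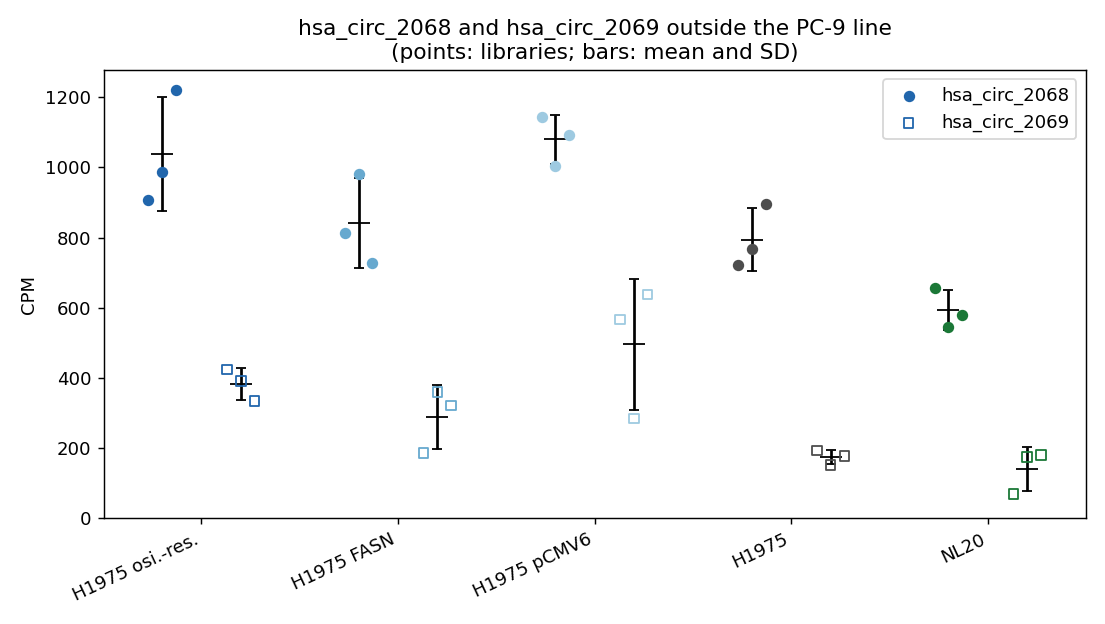
Levels of hsa_circ_2068 (filled circles) and hsa_circ_2069 (open squares) in CPM in the groups outside the PC-9 line, with points for libraries and bars for the mean and SD. The osimertinib-resistant and pCMV6 libraries of hsa_circ_2069 all lie above the uncoded NCI-H1975 libraries, which sit between 151.5 and 192.1 CPM.

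The balance between hsa_circ_2068 and hsa_circ_2069 is a ratio taken within a library and so does not depend on scaling between libraries. Of the reads of the pair, hsa_circ_2068 took 63.2%, 62.7% and 61.2% in gefitinib-resistant PC-9 and 64.6%, 65.1% and 61.8% in PC-9, with Wilson 95% intervals from 57.1% to 68.1%. The groups overlapped, with a mean difference of -1.48 percentage points (exact two-sided permutation test, p = 0.3, adjusted p = 0.375 over 5 tests). The pair had 1495 reads in gefitinib-resistant PC-9 and 2220 in PC-9. Library totals were 108805, 120142 and 117643 reads in gefitinib-resistant PC-9, against 131329, 192666 and 106266 in PC-9.

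All 6 libraries of the PC-9 line, at 61.2% to 65.1%, lay below those of uncoded NCI-H1975, whose mean share of hsa_circ_2068 was 82.0% ± 2.61, and of NL20, at 80.9% ± 8.41 (SD, n = 3 each). The share was 72.8% ± 5.27 in osimertinib-resistant cells, 74.7% ± 6.18 in FASN cells and 69.3% ± 7.72 in pCMV6 cells, each on 315 to 415 reads of the pair. The osimertinib-resistant libraries, at 68.2%, 71.7% and 78.5%, all lay below the NCI-H1975 libraries, at 78.9%, 83.5% and 83.5%. Those of pCMV6, at 66.9%, 78.0% and 63.2%, did too, and pCMV6 replicate 3 lay within the range of the PC-9 line. The mean differences from NCI-H1975 were -9.18 and -12.6 percentage points (exact two-sided permutation test, p = 0.1 for both, the smallest that 3 against 3 allows, adjusted p = 0.25 over 5 tests). FASN and pCMV6 cells overlapped, with a mean difference of 5.33 percentage points (exact permutation p = 0.4, adjusted p = 0.4 over 5 tests). That difference was 1.93 percentage points without FASN replicate 1 and 9.65 without pCMV6 replicate 2. These NCI-H1975 comparisons of the share were added after the data were seen.

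**Figure D4:**
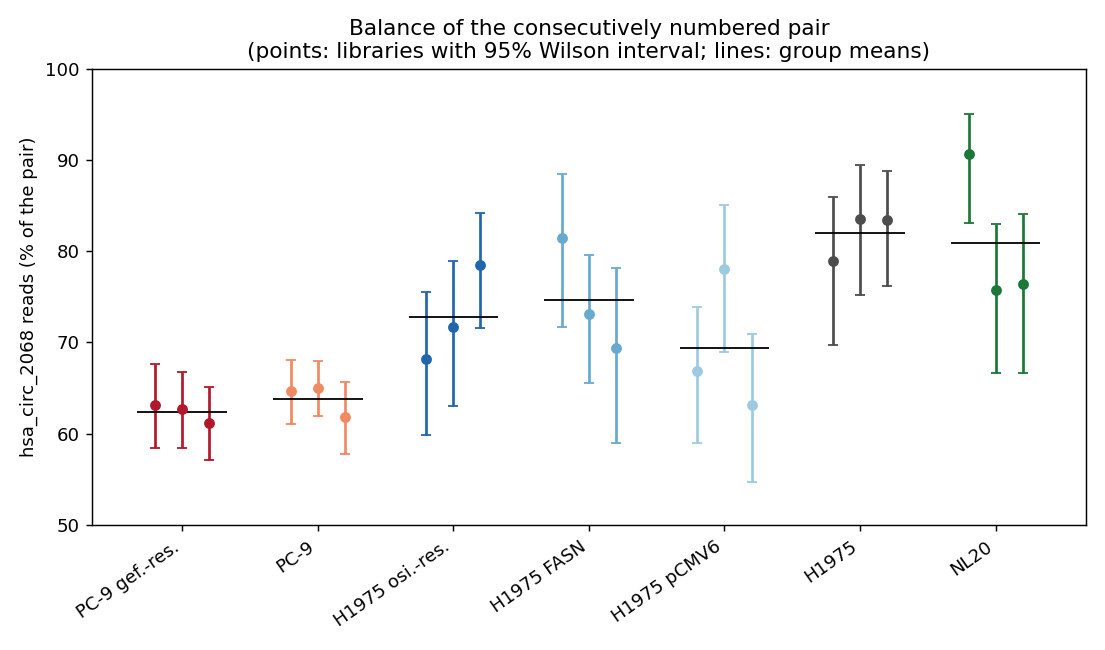
Share of hsa_circ_2068 among the reads of hsa_circ_2068 and hsa_circ_2069 (vertical axis, percent, drawn from 50 to 100) in each library, with 95% Wilson intervals for counting error and lines at the group means. The 6 libraries of the PC-9 line lie between 61.2% and 65.1%, and the uncoded NCI-H1975 libraries between 78.9% and 83.5%. The pCMV6 replicate 3 library, at 63.2%, lies within the range of the PC-9 line.

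The circRNAs numbered next to the members were mostly rare. For hsa_circ_48935, hsa_circ_29236 and hsa_circ_41874 the neighbours had at most 7 reads in the 6 PC-9 libraries and none passed the filter. hsa_circ_104536, which follows hsa_circ_104535, had 20 reads over the gefitinib-resistant PC-9 group and 18 over PC-9. Its 0 reads in the 15 other libraries follow from its number, since those columns come before the ones of the PC-9 line. hsa_circ_2067, which precedes hsa_circ_2068, was also read in all groups and was higher in the PC-9 line. It averaged 1237 ± 247.9 CPM in gefitinib-resistant PC-9 and 1158 ± 207.2 CPM in PC-9 (SD, n = 3 each). In the other lines it averaged 646.7 ± 71.6 CPM in osimertinib-resistant, 491.8 ± 110.6 CPM in FASN, 551.9 ± 86.8 CPM in pCMV6 and 347.2 ± 121.2 CPM in uncoded NCI-H1975, and 352.5 ± 92.9 CPM in NL20 (SD, n = 3 each). The table does not say whether consecutive numbers share a gene or a junction end.

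For every member but hsa_circ_2069, the most similar pattern was found in a circRNA seen only in the PC-9 line. By the Pearson correlation of log2 CPM over the 21 libraries, the circRNA outside the list most like hsa_circ_104535 was hsa_circ_104453 (r = 0.999), which was also the most like hsa_circ_48935 (r = 0.999). It averaged 881.4 ± 100.7 CPM in gefitinib-resistant PC-9 and 811.2 ± 216.6 CPM in PC-9 (SD, n = 3 each), with 0 reads elsewhere. The most like hsa_circ_29236 was hsa_circ_106494 (r = 0.976), for hsa_circ_41874 it was hsa_circ_106181 (r = 0.972), and for hsa_circ_2068 it was hsa_circ_106017 (r = 0.96), all with 0 reads outside the PC-9 line. For hsa_circ_2069 it was its neighbour but one, hsa_circ_2067 (r = 0.927), which had 700 reads in the PC-9 line and 718 elsewhere. A high r did not mean a like level. hsa_circ_106181 had 34 reads in the PC-9 line, at 64.1 CPM in gefitinib-resistant PC-9 and 52.5 CPM in PC-9. hsa_circ_106017 had 165 reads there, at 189.2 CPM in gefitinib-resistant PC-9 and 364.0 CPM in PC-9. Outside the PC-9 line hsa_circ_41874 had 27 reads and hsa_circ_2068 had 1306. These correlations describe the step between cell lines that all these circRNAs share, over libraries that also share their depth, and 140 circRNAs exceeded an r of 0.9 with hsa_circ_104535. Among the members themselves r ran from 0.817, between hsa_circ_41874 and hsa_circ_2069, to 0.998, between hsa_circ_104535 and hsa_circ_48935.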

How the data were processed

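The authors' deposited table holds whole-number counts of reads per circRNA in 21 libraries, without normalization. The submitters' processing notes name genome build hg38, HISAT2 and DESeq2 without roles or versions. Not given in the sources used here are the circRNA caller, the annotation and any filter. Per the labels' protocols, a column kit gave total RNA, from which a provider purified circular RNA and made the libraries.

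edgeR 4.0.16 in R 4.3.3 was used on these counts. A low-count filter (filterByExpr, minimum count 5, total 15) left 9175 circRNAs, the basis of CPM, with library sizes scaled by TMM. A single quasi-likelihood fit of 7 group means covered the 21 libraries, with robust spread. Adjusted p-values follow Benjamini and Hochberg over all circRNAs tested in a comparison, and calls need one under 0.05. SEs of log2 changes come from the F statistic and so from a spread shared across circRNAs and groups. Fitted changes are given where a group had at least 10 reads. A prior count of 2 was used for log2 CPM. The code was tested on simulated data. Shares were compared in Python 3.11.15 with scipy 1.17.1 by exact permutation. Intervals and floors cover counting error only, since these reads carry no stated molecular identifiers and so cannot be taken as independent molecules.

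The members, lists and comparisons were chosen with earlier results of these data known. Beside the 6 members, the circRNAs named are those numbered directly before and after each and the 1 outside the list with the highest correlation to each. Alternatives were other scaling, other filters, DESeq2 1.42.0, fits of the compared groups alone, each library left out, and the replicate number as a block. Same-numbered libraries did not deviate together from their group means, with correlations from -0.033 to 0.067 across circRNAs, so the numbers were not taken as pairs.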

Additional observations from a re-analysis of the deposited data

Results flagged for a closer look

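The change with resistance differed between the lines for hsa_circ_2069. The log2 change in gefitinib-resistant against other PC-9 cells was -0.24 and that in osimertinib-resistant against other NCI-H1975 cells was 1.13, a difference of -1.38 ± 0.35 (SE, edgeR quasi-likelihood test of the difference, adjusted p = 0.00988 over all circRNAs tested, of which 1.77% were called). The drugs differ between the lines, so drug and line cannot be told apart. The rise in NCI-H1975 was not particular to resistance. Against the same uncoded libraries, pCMV6 cells, which had no osimertinib, rose by 1.51. FASN cells averaged 288.5 CPM against 173.7 CPM. A resistance change and a low value in the uncoded libraries cannot be told apart here. The call was lost without NCI-H1975 replicate 2, PC-9 gefitinib-resistant replicate 1 or PC-9 replicate 3, with edgeR adjusted p of 0.0688, 0.0725 and 0.053, and without the filter on low counts, and the adjusted p of edgeR and DESeq2 ran from 0.00275 to 1.0 over all alternatives. For hsa_circ_2068 the difference was -0.73 ± 0.26 (SE, edgeR adjusted p = 0.136). This test was added after the data were seen. It uses the gefitinib change and the NCI-H1975 reads, both named in the choice of the members. Its p-values are therefore no independent evidence of a difference between the lines.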

How the results depend on the processing

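In gefitinib-resistant PC-9 against PC-9, 124 circRNAs were called, with 16 without the filter on low counts, 211 by DESeq2, 233 in a fit of these groups alone and 48 to 72 with a library left out. In osimertinib-resistant NCI-H1975 the 231 calls became 53 without the filter and 115 to 176 with a library left out. In pCMV6 cells the 33 calls became 12 without the filter, 53 by DESeq2 and 9 to 21 with a library left out. In FASN cells the 29 calls became 8 without the filter and 14 to 20 with a library left out. With the replicate number as a block the counts were 111, 208, 32 and 24 in that order. The block ended the call of hsa_circ_29236 (log2 change 0.80) and of no other member. The numbers do not pair the samples, and not every library correlated best with its own number.

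The log2 change of hsa_circ_104535 with gefitinib resistance, -0.03, turned to 0.014 in a fit of both groups alone and ran from -0.15 to 0.075 with a library left out, above 0 without gefitinib-resistant replicate 1, gefitinib-resistant replicate 3 or PC-9 replicate 2. That of hsa_circ_41874 ran from -0.11 to 0.40, below 0 without gefitinib-resistant replicate 3. Without the filter, hsa_circ_29236 and hsa_circ_2069 kept their direction at log2 changes of 0.79 with gefitinib, 1.04 with osimertinib and 1.35 in pCMV6 cells, but no adjusted p passed (edgeR adjusted p = 1.0, 0.706 and 0.124). More circRNAs are tested there. Other scaling changed no call of a member. The difference for hsa_circ_2068 between the resistance changes passed with a minimum count of 10 (-0.80, edgeR adjusted p = 0.0342) and by DESeq2 (-0.78, adjusted p = 0.00928). The cause was not tested. The share of the 6 in the reads kept its direction, with differences from 0.0282 to 0.0927 percentage points, as did the share of hsa_circ_2068 in its pair in the PC-9 line, from -2.49 to -0.872. Depth limits the 4 members that are rare outside the PC-9 line.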
